A study of Homo sapiens with 6 samples.

Results

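Keratin genes are the protein-coding genes of GENCODE version 44 whose symbols read KRT followed by a number, with or without a closing letter, leaving out the keratin-associated proteins (KRTAP). There were 55 of them among 20015 protein-coding genes, 27 in a cluster on chromosome 12 and 28 in a cluster on chromosome 17. The rule reads gene symbols and no measured value. Histone H3 acetylated at lysine 27 (H3K27ac), a mark of active promoters and enhancers, was mapped by chromatin immunoprecipitation and sequencing (ChIP-seq) in SU-CCS-1. SU-CCS-1 is a widely used line of human clear cell sarcoma (CCS) cells whose genotype is given as EWSR1::ATF1, the fusion that joins part of EWSR1 to the DNA-binding part of the transcription factor ATF1. The series held 3 H3K27ac samples and 3 input samples of the same line, input being fragmented chromatin sequenced without immunoprecipitation, and no treatment is named for either group. All results come from 1 merged list of 30784 peaks on the hg38 build, so no value per sample, no error between replicates and no read depth per sample can be given.

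Keratins form the intermediate filaments of epithelial cells. A type I keratin pairs with a type II keratin, and most type I genes lie together on chromosome 17 and the type II genes on chromosome 12, where the type I gene KRT18 is the exception, lying next to its partner KRT8. Simple epithelia use KRT8 and KRT18 with KRT7, KRT19 or KRT20. Stratified epithelia such as the epidermis use KRT5 and KRT14 in their basal layer and KRT1 and KRT10 above it, while hair keratins and the keratins of the inner root sheath are made in the hair follicle.

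Peaks lay at the start of very few keratin genes. A gene was scored as having a promoter peak when at least part of a peak fell inside 3 kb, on either side, of where any of its annotated transcripts starts. By that measure 2 of the 55 keratins had a promoter peak, KRT80 and KRT8, or 3.64% (95% Wilson interval 1.0 to 12.3), where 63.4% of all protein-coding genes did. Both lie on chromosome 12, which gives 2 of 27 genes (7.41%, 2.06 to 23.4) there and 0 of 28 on chromosome 17 (interval up to 12.1%). By role, 1 of 5 simple epithelial keratins had a peak (KRT8), as did 1 of 4 keratins outside the main classes (KRT80). None of the 20 keratins of the epidermis and other stratified epithelia did (interval up to 16.1%), nor any of the 17 hair keratins (up to 18.4%) or the 9 keratins of the inner root sheath and companion layer (up to 29.9%). The intervals cover counting only, and because neighbouring genes of a cluster share their chromatin, no test was made over genes. A gene without a peak was below the calling threshold or was removed after calling, which does not show that it lacked acetylation.

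**Figure D1:**
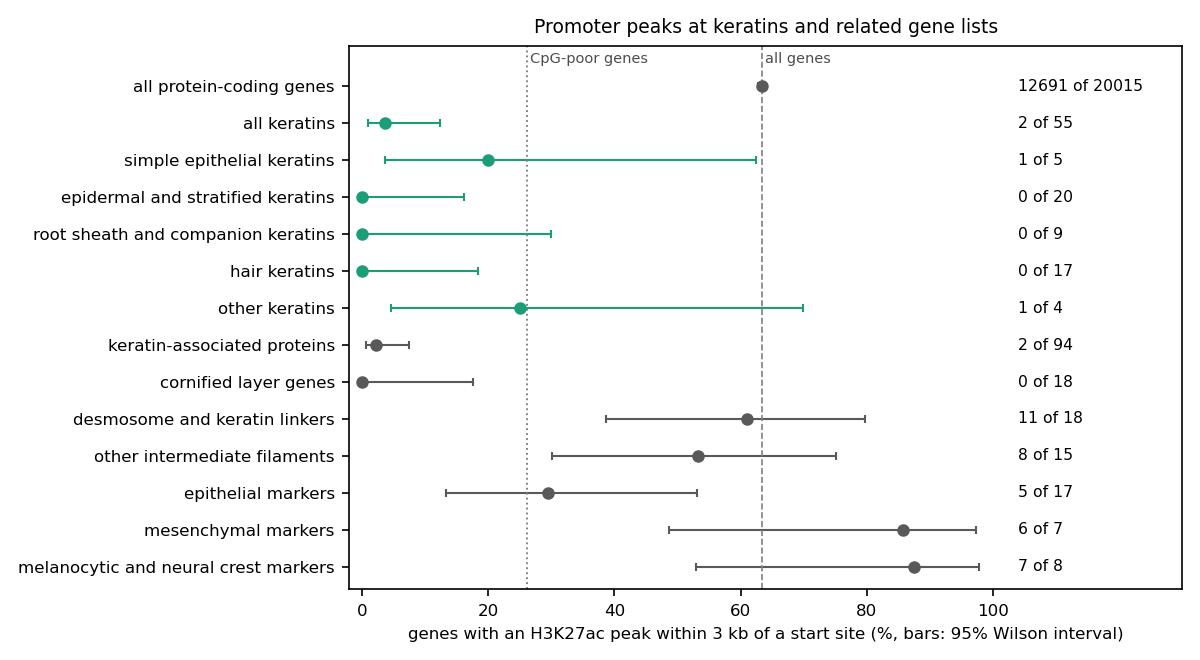
Percentage of genes with an H3K27ac peak within 3 kb of a start site (horizontal axis), for all protein-coding genes, the keratins and their classes (green), and related gene lists (grey). Points are shares and bars are 95% Wilson intervals. The dashed line is the share of all protein-coding genes (63.4%) and the dotted line that of genes with a CpG-poor promoter (26.2%), and the 55 keratins together lie at 3.64%.

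Sequence is shown for the peaks at KRT80 and KRT8, since these are the keratin promoters with a peak, and for the promoters of KRT10 and KRT35, an epidermal and a hair keratin with none. For KRT80 the central 300 bases of its peak are printed, chr12:52192236-52192535 of hg38, read on the minus strand, which is the strand of the gene. For KRT8 the 300 bases of the peak nearest the canonical start are printed, chr12:52903771-52904070 of hg38, also on the minus strand. Capitals in these mark TGAGTCA, the site of AP1 factors, which reads TGACTCA on the opposite strand. For KRT10 (chr17:40822615-40822864) and KRT35 (chr17:41481152-41481401) the 250 bases before the RefSeq start are printed on the minus strand of GRCh38.p14, as RefSeq gives them, and capitals mark TATAAA, the TATA box.
KRT80: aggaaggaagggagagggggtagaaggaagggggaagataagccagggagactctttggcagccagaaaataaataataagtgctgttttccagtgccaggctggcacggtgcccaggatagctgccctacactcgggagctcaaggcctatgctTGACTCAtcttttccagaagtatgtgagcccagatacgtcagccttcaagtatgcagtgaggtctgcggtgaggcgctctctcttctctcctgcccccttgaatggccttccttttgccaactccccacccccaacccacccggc
KRT8: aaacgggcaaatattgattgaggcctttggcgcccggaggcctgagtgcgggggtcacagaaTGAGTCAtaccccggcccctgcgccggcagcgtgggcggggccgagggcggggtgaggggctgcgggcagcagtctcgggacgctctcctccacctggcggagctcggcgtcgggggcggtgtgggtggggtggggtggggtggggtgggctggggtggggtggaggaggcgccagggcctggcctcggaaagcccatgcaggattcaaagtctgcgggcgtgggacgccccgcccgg
KRT10: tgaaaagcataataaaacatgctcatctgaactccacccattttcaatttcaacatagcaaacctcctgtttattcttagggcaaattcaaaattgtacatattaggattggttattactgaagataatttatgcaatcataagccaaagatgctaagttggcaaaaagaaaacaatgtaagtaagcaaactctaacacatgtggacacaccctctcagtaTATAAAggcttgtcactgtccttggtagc
KRT35: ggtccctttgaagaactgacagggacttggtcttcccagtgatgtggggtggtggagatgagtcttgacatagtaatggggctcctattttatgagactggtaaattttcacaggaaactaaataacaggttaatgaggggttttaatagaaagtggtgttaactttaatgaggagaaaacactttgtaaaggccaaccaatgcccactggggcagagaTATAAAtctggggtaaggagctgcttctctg

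KRT80 (chr12:52168996-52192014, minus strand), a type II keratin widely present in epithelia, had the only keratin promoter peak that covered the gene's canonical start. The peak was 1890 bases wide (chr12:52191441-52193330), wider than 73.7% of all 18856 promoter-associated peaks, whose median was 1270 bases. It held the starts of 2 of the 3 annotated transcripts and reached over the first coding exon. The other transcript, a retained-intron form, starts 5.69 kb from the peak. Further peaks of 670 bases (chr12:52202601-52203270) and 890 bases (chr12:52203621-52204510) lay 10.6 kb and 11.6 kb upstream of KRT80, inside the long non-coding gene LINC00592. The KRT80 peak held 1 copy of TGAGTCA, placed 363 bases upstream of the canonical start, 1 of the looser form TGANNTCA, and none of the ATF/CREB site TGACGTCA. Among the 2056 promoter-associated peaks within 10% of its width, 17.8% held TGAGTCA, 46.1% TGANNTCA and 5.25% TGACGTCA. The printed centre of the KRT80 peak holds 6 CpG, and 78.6% of the central 300-base windows of promoter-associated peaks hold that many or more.

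KRT8 (chr12:52897187-52949954, minus strand), the type II keratin of simple epithelia, had a narrow peak beside its canonical start. The peak was 640 bases wide (chr12:52903431-52904070), wider than 19.4% of promoter-associated peaks. It began 1006 bases downstream of the canonical start at position 52905076, in the first intron of that transcript. It contained the start and the untranslated first exon of KRT8-206, 1 of the gene's 18 annotated transcripts. In all 9 of the 18 transcripts start within 3 kb of this peak, 1 starts 22.4 kb away, and the remaining 8 start 45.7 to 45.9 kb away, at positions 52949776 to 52949954, beside KRT18. Which of these starts the peak acts on was not tested. It was rich in G and C (69.5%), with an observed over expected CpG of 0.64, and its central 300 bases, which overlap the exon and are not printed, hold 22 CpG. Of the central 300-base windows of all promoter-associated peaks, 44.4% hold that many or more. The KRT8 peak held 1 TGAGTCA, 1071 bases downstream of the canonical start, and no TGACGTCA or TGANNTCA. Of the 1459 promoter-associated peaks within 10% of the width of the KRT8 peak, 6.79% held TGAGTCA, 23.6% TGANNTCA and 0.960% TGACGTCA. A match is a string of letters and does not show that a factor binds there.

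The KRT8 peak stood alone. The nearest other peak lay 99.5 kb away on the side of KRT18 and 556 kb away on the other side. Only 7.20% of the 30784 peaks were at least 99.5 kb from any other, and the median distance from a peak to its nearest other peak was 4.11 kb.

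KRT18 (chr12:52948871-52952906, plus strand), the type I partner of KRT8, had no promoter peak. Its canonical start at 52949118 lies 44 kb from that of KRT8, and the nearest peak was the one in KRT8, 44.8 kb from the closest KRT18 start. None of the 7 KRT18 transcripts starts within 3 kb of a peak. The KRT18 promoter had the highest CpG content of all keratins, with an observed over expected ratio of 0.88 and 74.0% G and C. The remaining simple keratins also lacked a peak. KRT7, the type II keratin of ducts and glands, lay 28.0 kb from the nearest peak. KRT20 of the gut lay 65.7 kb away and KRT19, the smallest type I keratin, 118 kb away. The pair KRT8 and KRT18 thus gave 1 promoter peak in 2 genes (interval 9.45 to 90.5%). The other 53 keratins together gave 1 (1.89%, interval 0.334 to 9.94), at KRT80. With only 2 neighbouring genes in the pair, the intervals cannot decide whether the groups differ. The difference rests on the KRT8 peak alone. Of all protein-coding genes 63.4% had a promoter peak.

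A few keratins had peaks just beyond the 3 kb window. KRT10, the type I keratin of suprabasal epidermis, was closest to it, with a start 3354 bases from a peak of 740 bases (chr17:40818521-40819260). That peak lay at the other end of the gene, over coding exons, and at the start of the long non-coding gene KRT10-AS1, which runs the opposite way. The hair keratin KRT86 followed, with a canonical start 3946 bases from a peak. This peak of 1840 bases (chr12:52278591-52280430) and a second of 2060 bases (chr12:52280591-52282650) lay in the long KRT86 locus, within 3 kb of the start of an unnamed antisense non-coding gene. A further peak of 780 bases (chr12:52308241-52309020) covered coding and untranslated exon near the end of KRT86, and the start of another such gene. KRT81, a hair keratin whose gene lies wholly inside the KRT86 locus, started 8.88 kb from the peak of 2060 bases. Counting by gene body instead of by start, 4 of 55 keratins overlapped a peak (KRT80, KRT86, KRT8 and KRT10), where 64.7% of all protein-coding genes did. Counting only peaks that contain a start site left KRT80 and KRT8, where the share of all protein-coding genes was 58.2%. Because the peaks at KRT86 and KRT10 also lie at the starts of non-coding genes, which gene they belong to cannot be told apart.

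**Figure D2:**
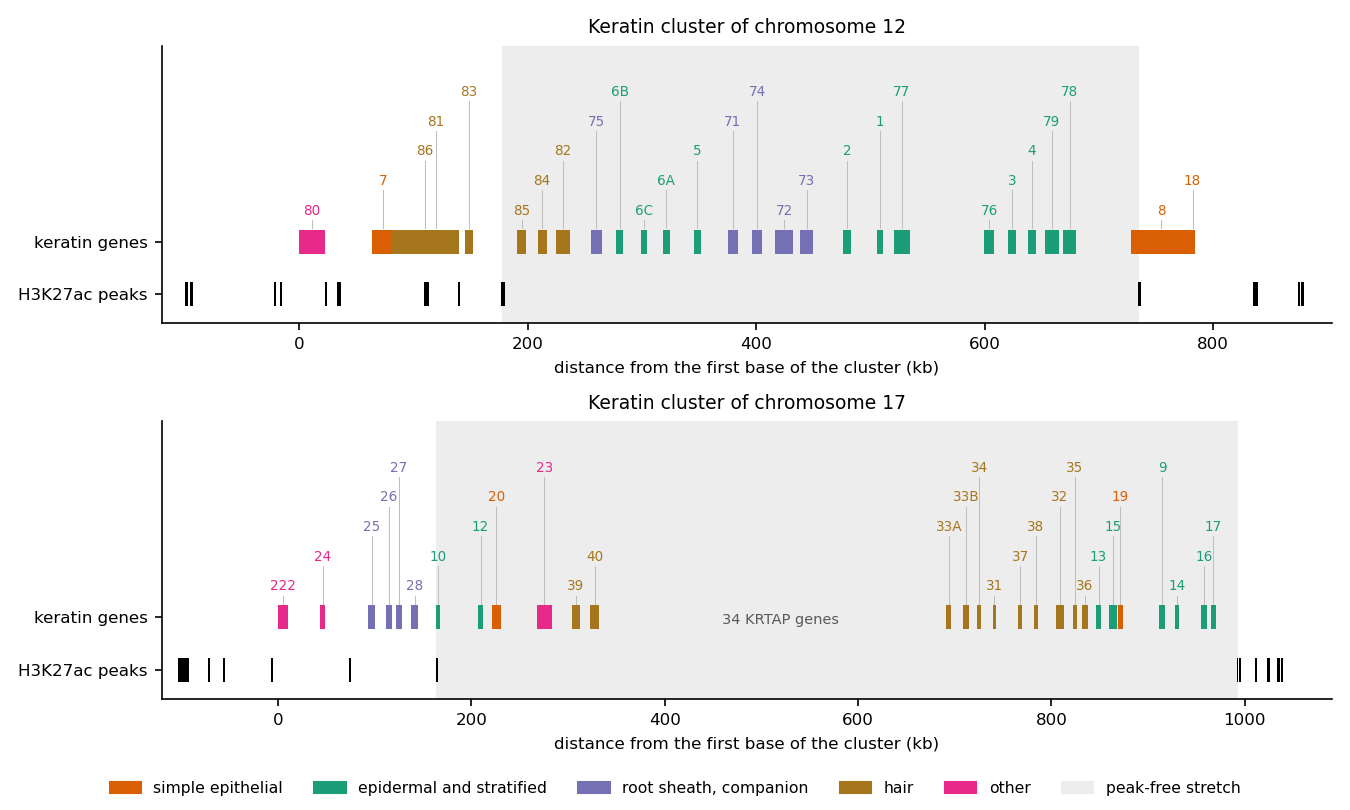
Keratin genes (coloured by class, labelled by the number in their symbol) and H3K27ac peaks (black) in both clusters, drawn to scale against the distance in kb from the first base of the cluster. Genes and peaks narrower than about 2 kb are drawn slightly wider so that they can be seen. Grey marks the stretch without a peak, 556 kb on chromosome 12 and 827 kb on chromosome 17.

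The chromosome 12 and chromosome 17 clusters differed in how many peaks they held. The chromosome 12 cluster (chr12:52168996-52952906, 784 kb) held 9 peaks, or 11.5 per Mb, close to the 11.9 per Mb of the whole chromosome, and 1.26% of its bases lay in peaks against 1.70%. The chromosome 17 cluster (chr17:40654665-41624842, 970 kb) held 2 peaks, or 2.06 per Mb, where the chromosome as a whole had 20.5, and 0.123% of its bases lay in peaks against 2.58%. The genome outside assembly gaps had 10.5 peaks per Mb and 1.5% of its bases in peaks. On chromosome 12 the peaks were not spread evenly. All but the KRT8 peak lay in the part of the cluster from KRT80 to KRT83 and the pseudogene KRT89P.

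Most keratins of both clusters shared 2 long stretches without any peak. On chromosome 12 the stretch ran for 556 kb from KRT89P to the KRT8 peak and held every start site of 20 keratins, KRT85 to KRT78. The only other protein-coding starts in it were 3 of the 18 KRT8 starts, just short of the KRT8 peak. It made up 70.9% of the cluster and was the 47th longest of 1574 gaps between peaks on that chromosome. These 20 genes include the basal keratin KRT5, the suprabasal keratins KRT1 and KRT2, and KRT6A, KRT6B and KRT6C, which are made in wounds and in the follicle. On chromosome 17 the stretch ran for 827 kb and held the start sites of 22 keratins, from KRT10 to KRT17, with those of 34 KRTAP genes. It was the 10th longest of 1691 gaps on its chromosome. KRT14, KRT15, KRT16 and the 11 type I hair keratins lie in it. Ranked over the genome, the stretches were 926th and 545th of 30605.

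Distances showed the same layout gene by gene. The median distance from a keratin's closest start site to a peak was 105 kb, and the farthest was KRT33A, a hair keratin, at 295 kb. In all 28 of 55 keratins (50.9%) lay more than 100 kb from a peak, as did 11.9% of all protein-coding genes, whose median distance was 0 since most carry a promoter peak. Hair keratins differed by cluster. The 6 on chromosome 12 lay 3.95 to 58.9 kb from a peak, and the 11 on chromosome 17 lay 141 to 295 kb away, so the ranges did not overlap. All 11 lie in the same stretch of 827 kb without a peak. Alternate contigs of hg38 hold extra copies of some regions. With these counted, at most 3.88% of 50-base words were unique at KRT39, KRT40, KRT33A, KRT33B, KRT34, KRT31 and KRT37. At KRT38, KRT32, KRT35 and KRT36 at least 89.2% were, and these genes lay 154 to 205 kb away. Whether repeated sequence affected the distances was not tested. Keratins of the inner root sheath and companion layer showed the opposite order. On chromosome 12 the companion layer keratin KRT75 lay 86.9 kb from a peak and the inner root sheath keratins KRT71 to KRT74 lay 206 to 268 kb away. The 4 on chromosome 17, KRT25 to KRT28, lay 18.6 to 43.5 kb away. Epidermal keratins lay at least 54.3 kb from a peak on chromosome 12 and 3.35 to 140 kb from one on chromosome 17, so these ranges overlapped. Genes of a class sit side by side, so their distances are not independent values.

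**Figure D3:**
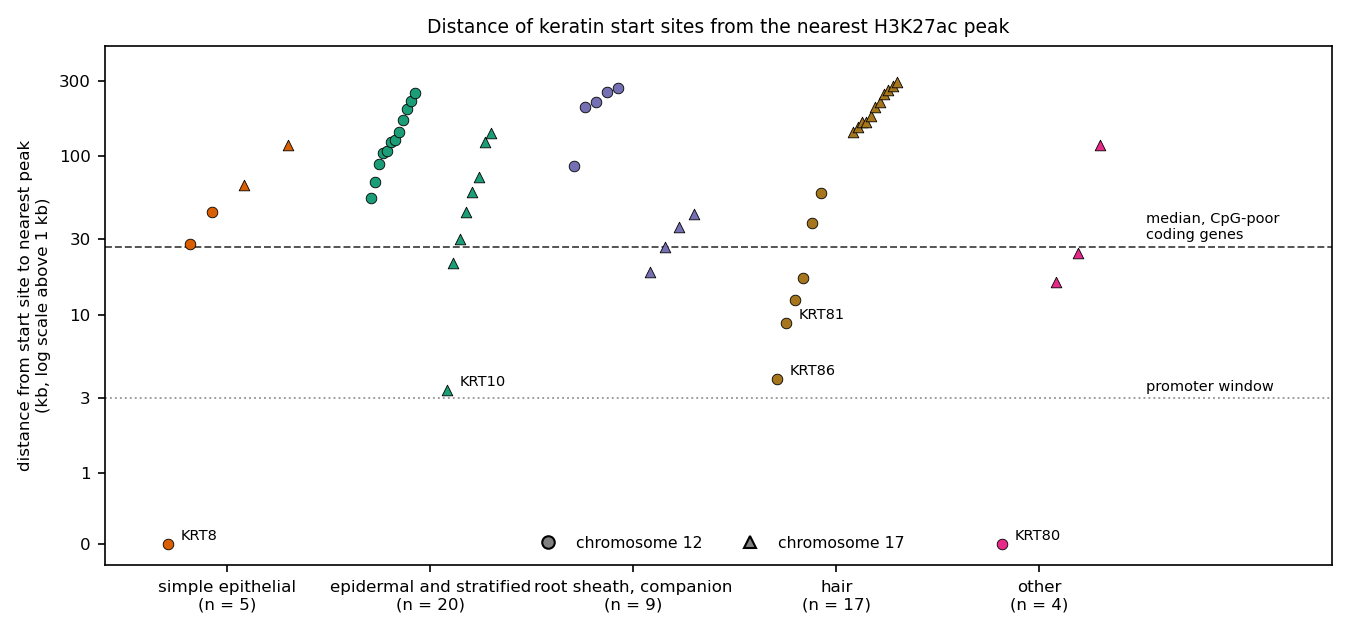
Distance in kb from the closest annotated start site of each keratin to the nearest H3K27ac peak (vertical axis, logarithmic above 1 kb), by keratin class and cluster (circles, chromosome 12; triangles, chromosome 17). The dotted line is the 3 kb promoter window and the dashed line the median of 26.9 kb for protein-coding genes with a CpG-poor promoter. KRT8 and KRT80 lie at 0, and KRT10, KRT86 and KRT81 are the only others within 10 kb.

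Keratin promoters were poor in CpG, a feature that the choice of genes did not use. In the 300 bases around the canonical start (250 before, 50 after) the ratio of observed to expected CpG had a median of 0.19 for keratins and 0.78 for all protein-coding genes, and G and C made up 48.3% and 63.7%. CpG-rich promoters, those with a ratio of 0.6 or more, carried a peak in 81.4% of genes and CpG-poor promoters in 26.2%. Of the keratins 51 were CpG-poor, 2 of them with a peak (KRT80 and KRT8). The other 4 were CpG-rich, namely KRT7, KRT18, the inner root sheath keratin KRT72 and KRT222, and none of these had a peak. CpG-poor genes of the whole genome lay a median of 26.9 kb from a peak, and 25.2% of them lay beyond 100 kb. What share of the low count at keratins goes with CpG content was not tested.

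**Figure D4:**
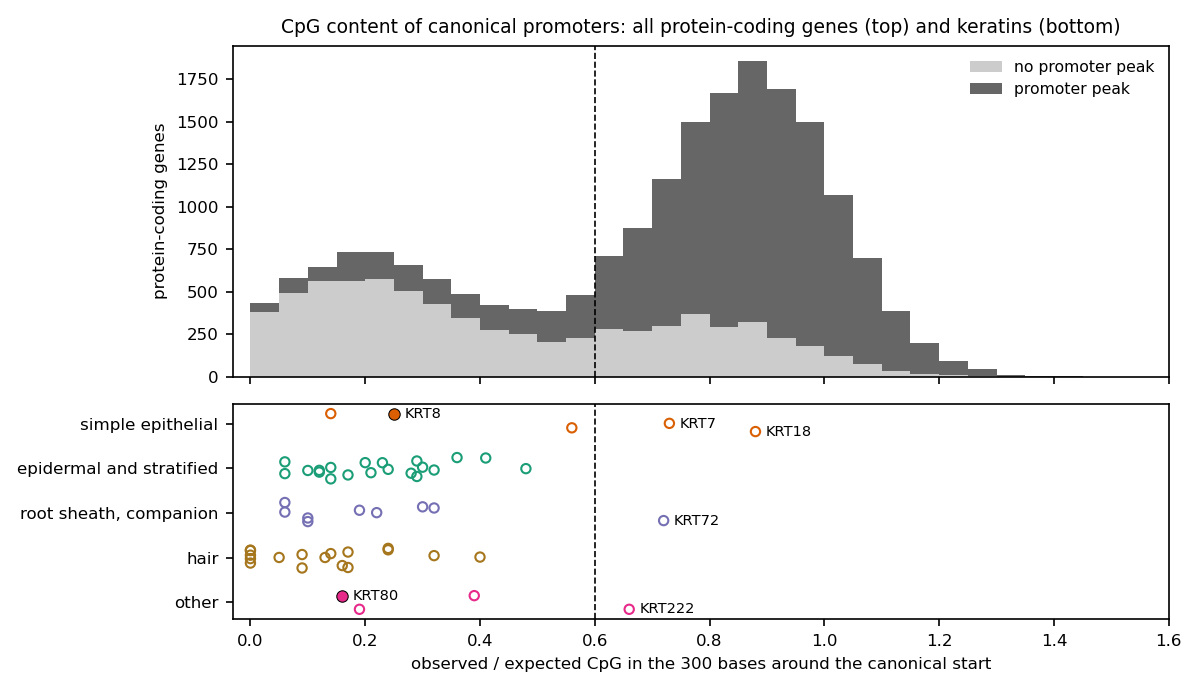
Ratio of observed to expected CpG in the 300 bases around the canonical start (horizontal axis) for all 20015 protein-coding genes, as a histogram stacked by promoter peak (top), and for each keratin by class (bottom, filled where the gene has a promoter peak). The dashed line is the 0.6 threshold. Of the keratins 51 lie left of it, KRT8 and KRT80 among them, and the 4 to its right have no peak.

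A TATA box was frequent at keratins. TATAAA, searched on the gene's strand from 45 to 15 bases before the canonical start, stood at 20 of 55 keratins (36.4%) and at 3.99% of all protein-coding genes. This search was chosen after its values were seen. Its share among CpG-poor genes, the class of 51 keratins and of 32.6% of all genes, was not counted. Some keratins are near copies of each other, as KRT37 and KRT38 are before their starts, so matches to this and the motifs below are not independent. The 20 include KRT10, KRT14, KRT16, KRT17, KRT13 and KRT3 of stratified epithelia and 8 hair keratins of chromosome 17, and do not include KRT8, KRT18 or KRT80. In the printed promoters it begins 29 bases before the start of KRT10 and 31 bases before that of KRT35. Of the motifs that the study examined for the fusion, TGACGTCA, TGAGTCA and TGANNTCA were looked for on both strands of the same 300 bases. The TGA repeats that it also reported were not counted. TGACGTCA occurred at none of the 55 keratins and at 2.69% of all protein-coding genes. TGAGTCA occurred at KRT16 alone, where 3.57% of all genes hold it. The form TGANNTCA, which includes TGACGTCA, occurred at 11 of 55 keratins and at 9.94% of all genes. Those 11 were KRT5, KRT6A, KRT6B, KRT6C, KRT75, KRT85, KRT86, KRT31, KRT33A, KRT34 and KRT38. None of these 11 had a promoter peak, as held for 53 of the 55 keratins.

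Near-identical genes and extra copies of a region in the assembly limit what short reads can show here. The reads were paired and 50 bases long, so the 50-base words of each promoter window that occur once on the 24 main chromosomes were counted. Placement of both reads of a pair together was not taken into account. At least 90% of words did so in 46 of 55 keratins, KRT8 and KRT80 among them. The 9 others were KRT81 (59.2%), KRT6B (73.0%), KRT6C (74.2%), KRT6A (84.1%), KRT86 (85.0%), KRT17 (86.0%), KRT16 (87.4%), KRT32 (89.2%) and KRT31 (89.7%). Reads from these genes could be split between copies, so whether they carry a peak is uncertain. The peak-free stretches were 96.2% unique on chromosome 12 and 92.8% on chromosome 17. When alternate contigs of hg38 were counted too, the chromosome 17 stretch fell to 38.1%, and no word in the windows of KRT12, KRT20, KRT23, KRT39, KRT40, KRT33A or KRT37 was unique. Whether the alignment used those contigs is not given in the sources used here. Over all protein-coding genes, 543 had start windows (500 bases to each side) at least 90% unique on the main chromosomes but under 10% with the contigs, and 57.8% of them had a promoter peak. Of the 242 of these with a CpG-poor promoter 22.7% did. Of the 28 chromosome 17 keratins 7 fell in that class (KRT12, KRT20, KRT23, KRT39, KRT40, KRT31 and KRT37), none of them with a promoter peak. Over the wider promoter windows 10 chromosome 17 keratins were under 10% unique with the contigs, the same 7 with KRT33A, KRT33B and KRT34. The remaining 18 had no promoter peak either.

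Marker genes of cell types were counted in the same way, beside the 63.4% of all protein-coding genes. The lists were chosen with earlier results of these data known, so the counts are no independent check of the cell type. Of 8 melanocytic and neural crest markers 7 had a promoter peak (95% Wilson interval 52.9 to 97.8%), among them MITF, SOX10, PMEL and MLANA, and TYR did not. Mesenchymal markers had one in 6 of 7 (interval 48.7 to 97.4%), namely VIM, ZEB1, ZEB2, SNAI2, TWIST1 and CDH2, and not FN1. The intervals of both lists include the share of all genes. Epithelial markers had one in 5 of 17 (13.3 to 53.1%), namely ELF3, ESRP2, GRHL1, KLF5 and OVOL1, while CDH1, EPCAM, GRHL2 and TP63 had none.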

How the data were processed

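H3K27ac ChIP-seq of SU-CCS-1 comprised 3 H3K27ac and 3 input samples, grouped by their titles. Per the study's methods, the authors sequenced paired reads of 50 bases, aligned them to hg38 with BWA-MEM (0.7.10-r789), removed duplicates with samtools, called broad peaks with MACS2 (2.2.6) at p = 1e-10 against input, and removed ENCODE denylisted regions. The deposited list gives the coordinates of each peak, with no read count, signal or replicate. Coordinates are printed counted from 1.

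Peaks were matched to GENCODE version 44 start sites with Python 3.11.15 and numpy 2.4.6, genes shared by X and Y being counted once. The matching was tested on simulated peaks. Promoter sequences matched RefSeq for 34 of 55 keratins. KRT80, KRT18 and KRT7 are among those not in that table. The members, classes and lists were chosen with earlier results of these data known, and the TATAAA search, LINC00592, KRT10-AS1 and KRT89P were chosen after their values were seen. Any keratin could be named. Of other genes, those of the lists, of KRTAP and beside the clusters could be. No test was made, since the list has no replicates. Shares carry 95% Wilson intervals.

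Alternatives were windows of 1 and 10 kb, other transcripts, the widest 50% and 25% of peaks, 500 bases of overlap, other cluster bounds and unique sequence.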

Additional observations from a re-analysis of the deposited data

How the results depend on the processing

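Of 72 alternatives over 12 results, 51 left the value within 1.5 times of the one reported and 21 moved it. The counts for chromosome 17, epidermal and hair keratins were 0, and only the 10 kb window could raise them. It raised all of them. Their other alternatives could not change a count of 0 and say nothing about stability, though they are counted among the 51. A window of 10 kb raised the keratins with a promoter peak to 5, by adding KRT86 and KRT81 (4 on chromosome 12, 2 of them hair keratins) and KRT10 (1 on chromosome 17, 1 epidermal keratin). With the widest 50% or 25% of peaks the count was 1 for all keratins, 1 on chromosome 12 and 0 for KRT8 and KRT18, since the KRT8 peak is narrow. Over all protein-coding genes the share with a promoter peak was 67.9% with the 10 kb window and 48.9% with the widest 50% of peaks. With the widest 25% it was 26.7% (5340 genes). For keratins these shares were 9.09%, 1.82% and 1.82%. With the widest 50% of peaks the chromosome 12 cluster had 3.83 peaks per Mb and 0.739% of bases in peaks, the chromosome 17 cluster had 0 of both, and the median keratin distance was 184 kb. Adding 100 kb on each side, which takes in EIF4B, SMARCE1 and EIF1, gave 18.3 peaks per Mb and 2.12% on chromosome 12 and 10.3 per Mb and 1.99% on chromosome 17. With only keratins at least 90% unique over all contigs, an alternative chosen after seeing the data, 2 of 37 had a peak, and 0 of 15 on chromosome 17. The share of all protein-coding genes under that limit was not counted. No paired analysis was possible because the list has no column per replicate, and for the same reason no replicate could be left out. The depth of each library is unknown from the list, so a weak peak below the threshold cannot be told from no peak.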

Other observations

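Other gene lists related to keratins were counted in the same way, with no test, beside the 63.4% of all protein-coding genes with a promoter peak. The KRTAP genes, which encode the matrix proteins of the hair shaft, had a promoter peak in 2 of 94 (2.13%, 95% Wilson interval 0.585 to 7.43), KRTAP5-4 and KRTAP5-6 on chromosome 11. Both peaks lay near the edge of the window, since the closest KRTAP start was 2.60 kb from a peak. No KRTAP gene had a peak over a start site or in its body, where 58.2% and 64.7% of all protein-coding genes did. None of the 34 KRTAP genes on chromosome 17 or of the 49 on chromosome 21 had a promoter peak. The median distance of KRTAP genes to a peak was 310 kb. The 18 genes of the cornified layer, the outermost part of the epidermis, had none (interval up to 17.6%), among them the envelope proteins IVL and LORICRIN, the filaggrins FLG and FLG2, and the crosslinking enzyme TGM1, whose start lay 6.42 kb from a peak.

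Genes of the desmosome, the junction to which keratin filaments attach, and of other keratin linkers had a promoter peak in 11 of 18 (61.1%, 38.6 to 79.7). They included the plakin DSP with 1 peak, plectin (PLEC), which links filaments to other structures, with 11, and plakoglobin (JUP) with 3. The cadherins split, with DSG2 and DSC2 having a peak and DSG1, DSG3, DSG4, DSC1 and DSC3 having none. Of the 15 other intermediate filament genes 8 had one (53.3%, 30.1 to 75.2), namely VIM, the lamins LMNA, LMNB1 and LMNB2, NES, SYNM, NEFL and BFSP1. LMNA had 9 promoter peaks with a summed width of 28.0 kb and VIM, the main filament of mesenchymal cells, had 1 of 4.21 kb. Peaks near any annotated start were counted, so long genes with many spread starts can gather more than short ones. For all protein-coding genes the share with a promoter peak was 63.4%.

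Some neighbours outside the clusters had promoter peaks, as did 63.4% of all protein-coding genes. EIF4B, 53.4 kb beyond KRT18, had 3 at its start, the narrowest only 20.2% unique in 50-base words. SMARCE1, 6.01 kb before the chromosome 17 cluster, had 1, and EIF1, 64 kb beyond it, had 2. SMIM41, 60.7 kb before KRT80, had none. ATF1, whose 3′ part is joined to EWSR1 in the fusion, ends 1.35 Mb before the chromosome 12 cluster. Copy number around it was not measured here.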
